A study of Mus musculus with 2 samples.

Results

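Heat shock proteins and chaperones bind other proteins and help them fold, refold or be degraded. The 10 genes described here, Hspa1a, Hspa1b, Hspb1, Dnajb1, Hsph1, Hspa5, Hspa8, Hsp90aa1, Hsp90b1 and Hspe1, were chosen by name with earlier results of these data known, and 9 of them had probes on the arrays, 14 probes in all. Their expression in the prefrontal cortex (PFC) differed by less than 2-fold between the CMS group and the C group for every one of the 9, and the log2 ratios of CMS over control ran from -0.52 for Hspb1 to 0.09 for Hsph1. Over the whole array, 37069 gene names were present and 27119 had a ratio.

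Cytosolic chaperones of the heat shock response are switched on by heat shock factor 1 when misfolded proteins accumulate. Inducible HSP70 proteins then hold unfolded chains with the help of J-domain proteins and of HSP110 nucleotide exchange factors, HSP90 matures receptors and kinases, and small heat shock proteins keep denatured proteins soluble. In neurons the constitutive HSP70 protein is abundant and takes part in vesicle cycling at synapses, and HSP90 with its co-chaperones holds the glucocorticoid receptor in the form that binds hormone. The endoplasmic reticulum has its own members, which are switched on by the unfolded protein response, and so do mitochondria.

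RNA came from male mice of the strain labelled C57Bl/6 N sea, aged 9 to 10 weeks at the start, as 1 pool of 7 mice per group, and each pool was hybridized to 1 one-color Agilent array, both on 1 slide. The C group had ordinary daily care, and the CMS group was kept singly and had chronic mild stress (water deprivation, overnight light, wet and tilted cages, restraint, forced swimming and electric shocks) for 4 weeks, so that stress and single housing cannot be told apart. Tissue was taken on the day after the last stressor. The design text gives 7 mice per pool, and the methods give a larger number for arrays and qRT-PCR together. Each group rests on 1 array without replicates, so no test between them was made, and every difference given here describes these 2 pools only.

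Of 59305 spots, 65.2% (C pool) and 65.9% (CMS pool) were well above background, and no spot was saturated. Signals were scaled to a mean of 2500 per array. The median log2 ratio over all gene names was -0.03. Where a probe had several spots, the SD among their log2 ratios was 0.14 (335 probes), and it was 0.06 over the 138 of these probes with a mean scaled signal above 1000. This SD covers error within the arrays and not the spread between mice. The scanner software's own error estimate is broader, and for the 14 probes it gave log2 ratios an error from 0.204 to 0.205. It was from 10% to 10.05% of the signal for each of these probes on both arrays, whatever their brightness. It thus serves as a nearly constant limit and not as an error measured for each probe. Of the neuron markers, Snap25 and Syt1, which act in synaptic vesicle fusion, were well above background, with signals of 48526 and 82808 in the C pool and 47959 and 80514 in the CMS pool. In bulk tissue, fewer cells of a type and less RNA per cell cannot be told apart.

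The start regions of 6 members are shown. They carry the binding motifs by which these genes are usually grouped, as do those of Hsph1, which are not printed. The start regions of Hspa1a and Hspa1b are also nearly alike. Whether a probe separates the transcripts of Hspa1a and Hspa1b cannot be read from promoters. Promoters of 8 of the 10 members were taken from RefSeq on GRCm38.p6, each with 250 bases before and 50 after the annotated start. Capitals mark the motif matches. Hspa1a (chr17:34972107-34972406, minus strand) and Hspa1b (chr17:34959189-34959488, minus strand) were alike at 296 of 300 bases. Each held 1 short heat shock element, that is a GAA unit and an inverted TTC unit with 2 bases between them in either order.
Hspa1a: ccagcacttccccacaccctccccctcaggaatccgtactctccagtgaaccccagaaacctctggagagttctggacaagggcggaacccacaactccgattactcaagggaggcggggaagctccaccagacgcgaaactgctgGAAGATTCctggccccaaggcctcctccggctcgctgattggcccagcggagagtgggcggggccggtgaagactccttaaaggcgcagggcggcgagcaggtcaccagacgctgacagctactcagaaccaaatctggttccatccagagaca
Hspa1b: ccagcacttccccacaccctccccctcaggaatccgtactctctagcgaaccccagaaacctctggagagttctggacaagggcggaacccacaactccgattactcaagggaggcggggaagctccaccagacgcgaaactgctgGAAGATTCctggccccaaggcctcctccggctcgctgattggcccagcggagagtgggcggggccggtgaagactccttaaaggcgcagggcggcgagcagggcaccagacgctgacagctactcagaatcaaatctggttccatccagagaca

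Hspb1 (chr5:135887669-135887968, plus strand) held 2 such short elements, which begin 117 and 97 bases before the start. Short elements of this kind were in 15.1% of all 32851 promoters. Hspe1 (chr1:55087898-55088197, plus strand) held a run of alternating units that begins 89 bases before the start and gives 2 overlapping elements of 3 units. Elements of 3 units were in 0.603% of all promoters, and among the 8 members with a promoter they were in 2, Hspe1 and Hsph1. In Hsph1 the element begins after the start, at base 16 or 37 depending on the annotated start.
Hspb1: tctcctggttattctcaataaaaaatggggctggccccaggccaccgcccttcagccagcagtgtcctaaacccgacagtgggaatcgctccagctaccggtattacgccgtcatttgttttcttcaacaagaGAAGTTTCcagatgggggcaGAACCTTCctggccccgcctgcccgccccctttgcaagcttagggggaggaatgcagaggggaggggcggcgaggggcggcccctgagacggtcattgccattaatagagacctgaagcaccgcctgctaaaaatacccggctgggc
Hspe1: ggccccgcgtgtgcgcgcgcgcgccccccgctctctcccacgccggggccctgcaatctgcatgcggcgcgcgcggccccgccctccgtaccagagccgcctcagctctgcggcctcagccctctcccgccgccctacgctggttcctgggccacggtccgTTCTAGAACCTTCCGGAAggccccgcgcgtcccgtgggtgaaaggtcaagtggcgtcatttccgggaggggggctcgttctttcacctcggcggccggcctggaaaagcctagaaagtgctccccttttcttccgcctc

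The endoplasmic reticulum stress element is CCAAT followed after 9 bases by CCACG, searched on both strands, and it was in 0.119% of all promoters. Among the members it was in Hspa5 (chr2:34771840-34772139, plus strand), beginning 65 bases before the start, and in Hsp90b1 (chr10:86705395-86705694, minus strand), beginning 212 and 107 bases before the start. No motif of these kinds was in the promoters of Dnajb1. These matches describe letters in the sequence and not the binding of a factor.
Hspa5: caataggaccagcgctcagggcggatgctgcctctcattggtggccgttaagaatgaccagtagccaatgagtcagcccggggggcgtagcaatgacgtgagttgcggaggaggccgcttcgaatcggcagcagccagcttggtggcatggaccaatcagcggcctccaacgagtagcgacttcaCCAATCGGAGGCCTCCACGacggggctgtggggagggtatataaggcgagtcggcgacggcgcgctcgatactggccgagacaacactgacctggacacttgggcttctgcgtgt
Hsp90b1: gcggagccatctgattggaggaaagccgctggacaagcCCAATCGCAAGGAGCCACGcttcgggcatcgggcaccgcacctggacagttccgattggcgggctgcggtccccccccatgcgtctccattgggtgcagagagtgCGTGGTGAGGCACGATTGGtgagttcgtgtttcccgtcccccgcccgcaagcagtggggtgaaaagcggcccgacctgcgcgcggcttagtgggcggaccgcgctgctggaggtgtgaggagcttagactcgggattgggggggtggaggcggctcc

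Among the inducible cytosolic chaperones, Hspb1 was lower in the CMS pool by more than the scanner error, Dnajb1 lay close to that error, and Hspa1a and Hsph1 were within it. Hspa1a (NM_010479) encodes the stress-inducible HSP70 protein. Its probe gave scaled signals of 402 (C pool) and 378 (CMS pool), and the log2 ratio was -0.09. No probe carried the accession of Hspa1b, the near-identical copy, so that Hspa1b is not described, and the probe of Hspa1a may also read its transcripts. Every one of the 14 probes lay at least 22.6 times (C pool) and 21.5 times (CMS pool) over the weakest signal called well above background.

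Hspb1 (NM_013560), a small heat shock protein that also acts on actin filaments, had the lowest ratio of the 9 genes. Its signal was 3428 (C pool) and 2397 (CMS pool), which is 69.9% of the C group and a log2 ratio of -0.52. The difference was larger than the spot SD and larger than the scanner error of 0.204, and it stayed inside the 2-fold limit. Among the 9725 gene names with a mean scaled signal above 1000, 0.175% had a lower ratio. With a single probe and 1 pool per group, this position has no replicate.

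Dnajb1 (NM_018808), the J-domain protein that hands clients to HSP70 and is induced with it, gave signals of 20625 (C pool) and 17801 (CMS pool). Its log2 ratio was -0.21, just beyond the scanner error of 0.204 when measured from 0. Measured from the median of all gene names, Dnajb1 lay at -0.18, within that error. Under 4 of the 14 ways of processing (75th percentile, trimmed mean, the deposited table, and centring on gene names above a signal of 1000) the log2 ratio itself was -0.20 to -0.18 and within that error. In the values as reported, 3.84% of the gene names above a signal of 1000 had a lower ratio. Hsph1 (NM_013559), an HSP110 protein that exchanges nucleotide on HSP70, had 2 probes. The probe that stands for the gene had signals of 13629 and 14499 in the C and CMS groups, a log2 ratio of 0.09. The other probe had signals of 3853 and 3662, a log2 ratio of -0.07. The probes of Hsph1 thus lay on opposite sides of 0, and both were within the scanner error.

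**Figure D1:**
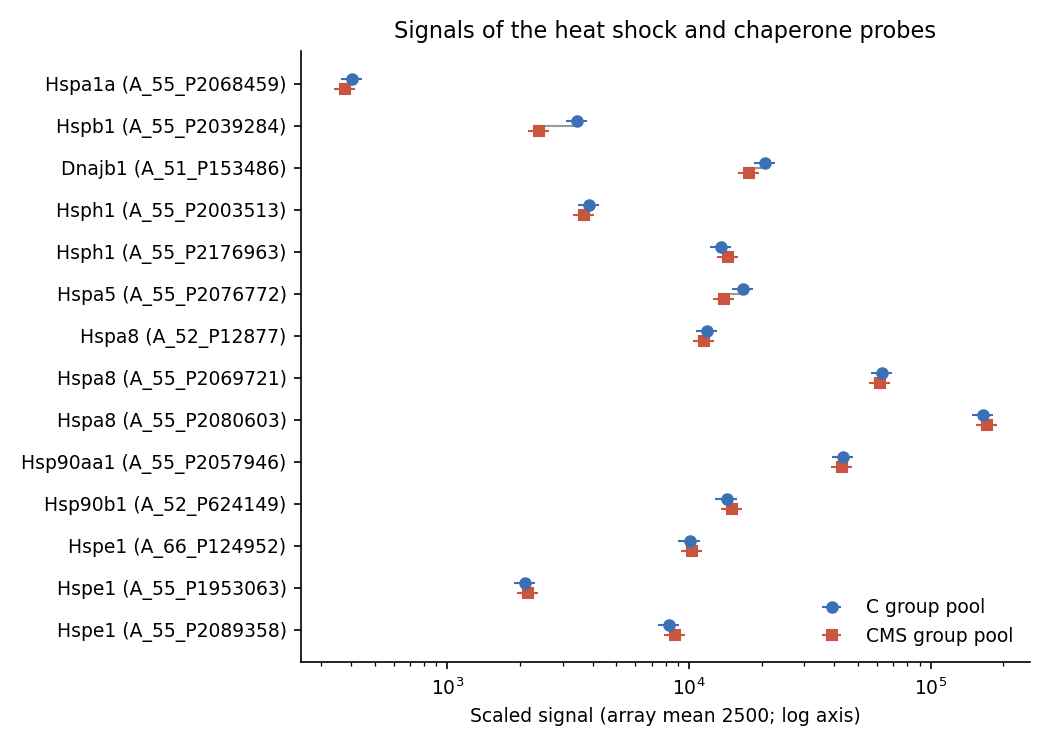
Scaled signal of each of the 14 probes in the C group pool (circles) and the CMS group pool (squares), on a log axis, with bars for the scanner software's error estimate of that spot. Each point is 1 array of 1 pool. The bars of the pools are clear of each other only for Hspb1, at 3428 and 2397.

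Hspa8 and Hsp90aa1, abundant chaperones of the neuronal cytosol, had log2 ratios close to 0. Hspa8 (NM_031165), the constitutive HSP70 protein that also uncoats clathrin vesicles, had 3 probes. Their signals were 11824, 62898 and 164596 in the C pool and 11541, 61732 and 170559 in the CMS pool. The log2 ratios were -0.03, -0.03 and 0.05, a range of 0.09 among probes of the same gene. Hsp90aa1 (NM_010480), the inducible cytosolic HSP90 protein, gave signals of 43412 (C pool) and 43014 (CMS pool), a log2 ratio of -0.01. Measured from 0, the differences of Hspa8 and Hsp90aa1 were smaller than the spot SD of 0.06. Measured from the median of all gene names, the brightest probe of Hspa8 lay 0.08 above, beyond that SD, and Hsp90aa1 lay 0.02 above.

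Of the endoplasmic reticulum members, Hspa5 and Hsp90b1 lay on opposite sides of 0. Hspa5 (NM_022310), the BiP protein that binds new chains in the lumen and restrains the sensors of the unfolded protein response, gave signals of 16813 (C pool) and 13963 (CMS pool). This is 83.1% of the C group and a log2 ratio of -0.27, beyond the scanner error. With normexp background correction it was -0.19 and within that error. In the values as reported, 1.59% of the gene names above a signal of 1000 had a lower ratio. Hsp90b1 (NM_011631), the HSP90 protein of the same compartment, gave signals of 14306 (C pool) and 15008 (CMS pool). Its log2 ratio was 0.07, within the scanner error. Both promoters printed above hold the stress element.

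The mitochondrial member, Hspe1 (NM_008303), is the lid of the chaperonin whose barrel is Hspd1. Its 3 probes had signals of 10054, 2099 and 8254 in the C pool and 10302, 2163 and 8782 in the CMS pool. The log2 ratios were 0.04, 0.04 and 0.09, all within the scanner error. Measured from 0, only the last exceeds the spot SD of 0.06 above a signal of 1000. Measured from the median of all gene names, the ratios were 0.07, 0.07 and 0.12, all beyond that SD. All 3 probes of Hspe1 were slightly higher in the CMS pool.

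**Figure D2:**
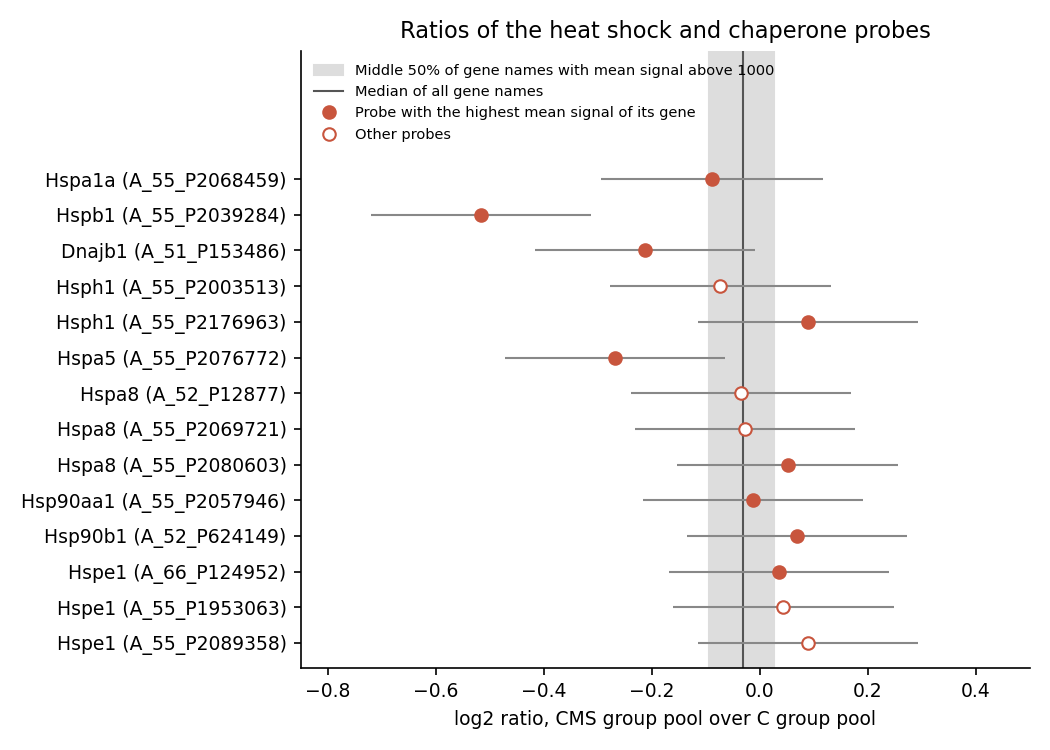
log2 ratio of CMS over control for each probe, with bars for the scanner error of the ratio; filled points are the probe that stands for the gene. The vertical line is the median of all gene names, -0.03, and the grey band the span between the quartiles of gene names with a mean scaled signal above 1000, from -0.09 to 0.03. In the values as reported, the bars of Hspb1, Hspa5 and Dnajb1 do not cross 0, but that of Dnajb1 would under 4 other ways of processing and that of Hspa5 under 1. The bars of Hspb1 and Hspa5 do not reach the line of the median of all gene names, and that of Dnajb1 crosses it.

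Taken as a group, 0 of the 9 genes were above 2-fold and 0 were below 0.5 times the C group, where 1.99% of all gene names with a ratio were above 2-fold and 0.590% below 0.5 times. The median log2 ratio of the 9 genes was -0.01, against -0.03 over all gene names. Of the 9, 4 lay below the median of all gene names. Of the 8 members with a mean scaled signal above 1000, 3 were more than the spot SD of 0.14 below that median and 0 were as far above it, where 7.15% of the 9725 gene names above that signal were as far below and 6.85% as far above. With the spot SD of 0.06 that holds above a signal of 1000, 3 of the 8 were below the median by more than that SD and 4 were above it, where 27.7% and 25.6% of those gene names were. The 4 above were Hsph1, Hsp90b1, Hspa8 and Hspe1, and the 3 below were Hspb1, Hspa5 and Dnajb1. The 3 below come from different branches of the family, a small heat shock protein, an endoplasmic reticulum HSP70 and a cytosolic J-domain protein.

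**Figure D3:**
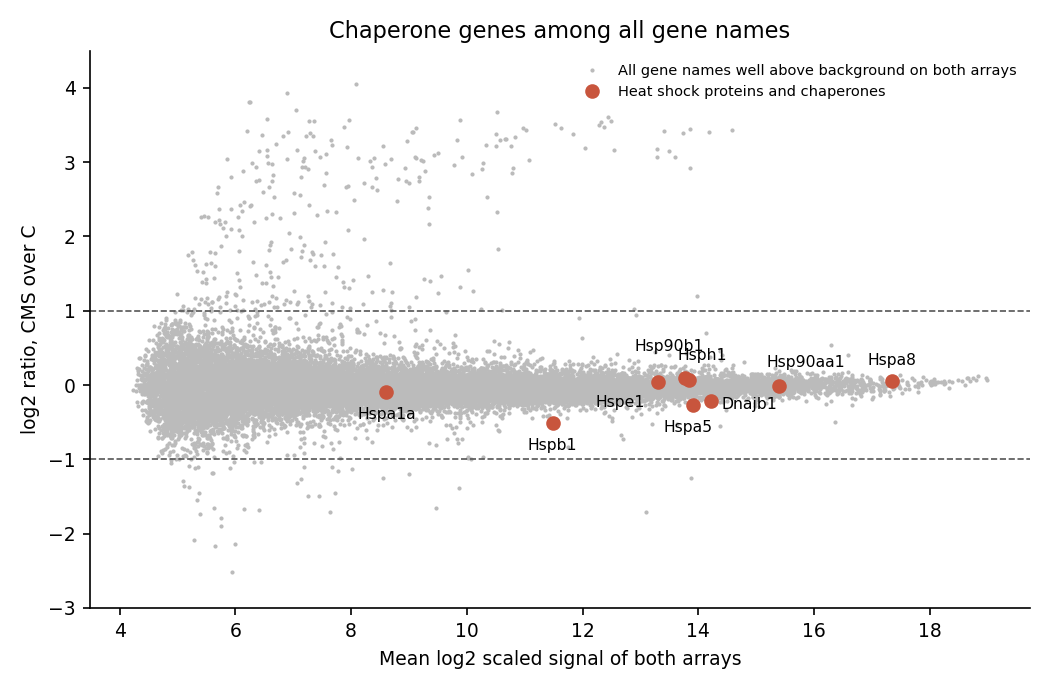
log2 ratio of CMS over control against mean log2 scaled signal for every gene name well above background on both arrays (grey) and for the 9 measured members (red), with dashed lines at 2-fold. No member is past 2-fold, and 2 of the 9 lie between the quartiles of gene names with a mean scaled signal above 1000. Of those gene names, 0.175% had a lower ratio than Hspb1, 1.59% than Hspa5 and 3.84% than Dnajb1.

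The wider chaperone network was described by 9 lists with 90 further genes, of which 87 had a probe and 86 a ratio. The number more than 2-fold higher was 0 and the number below 0.5 times was 0 in every list. Of the 86 genes, 50 lay below the median of all gene names, 58.1%, and their median log2 ratio was -0.05. By more than the spot SD of 0.14, 13 of the 86 lay below the median of all gene names and 3 above it. Over all gene names, 17.6% lay as far below and 19.4% as far above. Among gene names with a mean scaled signal above 1000, these shares were 7.15% and 6.85%. The lists hold genes on both sides of that signal, so neither pair of shares matches them exactly. Dnajb5, Grpel1 and Grpel2 had no probe matched by accession, and Hspb7 was not well above background on either array.

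The 4 regulators were all below 0, and 3 of them lay below the median of all gene names, -0.03. Hsbp1 lay almost at that median and Hsf4 slightly above it. Hsf1, the main heat shock factor, had signals of 2169 (C pool) and 1970 (CMS pool), a log2 ratio of -0.14. Hsf2 had the lowest of the 4 ratios, -0.20, and Hsf4 the highest, -0.02. Hsbp1, a small protein that binds heat shock factor trimers, had -0.03.

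Small heat shock proteins other than Hspb1 spread most among the cytosolic lists, with a median of -0.10 over 7 genes. Hspb2, a muscle and brain relative of Hspb1, had a log2 ratio of -0.52, at signals of 169 (C pool) and 118 (CMS pool). Cryab, the alpha B crystallin of glia and muscle, had -0.12 at signals of 5638 and 5177. Cryaa had 0.15 at signals of 66.4 and 73.6. Hspb3 was at the other end, with 0.31 and signals of 363 and 452. These 7 genes did not share one direction, with 2 of them more than the spot SD of 0.14 above the median of all gene names and 1 as far below, beside 19.4% and 17.6% of all gene names.

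The partners of HSP70 and HSP90 lay closer to 0. Of the relatives of HSP70, HSP90 and HSP110, Hsp90ab1, the constitutive cytosolic HSP90, had signals of 82847 and 78077 in the C and CMS groups and a log2 ratio of -0.09, and the 8 genes ran from -0.17 for Hspa12b to 0.07 for Hspa1l, with Hspa12a at 0.03. The J-domain list had a median of -0.0031 over 10 genes and ran from -0.22 for Dnaja1 to 0.06 for Dnajc6, with Dnajb2 at -0.04 and Dnaja2 at 0.05. The 16 co-chaperones had a median of -0.04. Fkbp4, a co-chaperone that helps the glucocorticoid receptor reach the nucleus, had a log2 ratio of -0.19, and Ptges3, the p23 protein of the same receptor complex, had 0.11. Unc45a, a chaperone of myosin, was lowest of the co-chaperones with -0.21, and Sugt1 had 0.02.

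The folding machines of the cytosol and the mitochondria had medians below that of all gene names, -0.03. In each of these lists 6 of the 8 genes with a ratio lay below it. The 8 subunits of the CCT chaperonin, the ring that folds actin and tubulin, had a median of -0.09 and ran from -0.18 for Cct4 to 0.06 for Cct5, with Cct3 at -0.13 and Cct7 at -0.02. The mitochondrial list had a median of -0.08 over 8 genes. Hspd1, the barrel that Hspe1 closes, had -0.11 and is named for that role with its value known. Hspa9, the mitochondrial HSP70, was lowest with -0.21, Trap1, the mitochondrial HSP90, had -0.11, Clpp had -0.03, and Timm44, which ties Hspa9 to the import channel, was highest with 0.01.

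Among chaperones of the endoplasmic reticulum, 10 of 14 lay below the median of all gene names and 5 lay more than the spot SD of 0.14 below it. As far below were 17.6% of all gene names, and 7.15% of those with a mean scaled signal above 1000. The list holds genes on both sides of that signal. The median of the 14 was -0.11. Sdf2l1, a partner of BiP, had signals of 508 (C pool) and 365 (CMS pool), a log2 ratio of -0.48. Pdia4, a disulfide isomerase, had 233 and 192, a log2 ratio of -0.28. Pdia3 and Canx, which act on glycoproteins, had 0.06 and 0.05.

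The sensors and effectors of the unfolded protein response had a median of -0.08 over 11 genes. Ppp1r15a, which restarts translation after stress, was lowest with -0.22, and Ddit3, the CHOP transcription factor, had -0.13 with signals of 908 (C pool) and 831 (CMS pool). Ern1, the sensor that splices Xbp1, was highest with 0.23, at signals of 158 and 185. Trib3, a CHOP target, had 0.06.

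Some lists outside the chaperone network differed by far more between the pools. Of 8 hepatocyte markers, 7 were above 2-fold, with a median log2 ratio of 3.30 and a range from 0.74 to 3.53. Their summed scaled signal was 8381 (C pool) and 75423 (CMS pool), and none was at 0. Alb, the plasma albumin, had signals of 1509 and 17486, and Serpina1a, a plasma protease inhibitor, had 4275 and 35977. Of 5 neutrophil markers, 2 were above 2-fold. For 2 of the 5, the C pool signal was not well above background, so their ratios are bounds. These include a marker above 2-fold, with signals of 14.2 (C pool) and 36.2 (CMS pool). The summed signal of the 5 was 712 and 1419, with S100a9 at 371 and 843 and Camp at 187 and 280. The 3 erythroid markers with a ratio had a median of 0.41 and a summed signal of 36000 and 47352, with Hba-a1, a globin, at 19004 and 25167.

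Immediate early genes, which neurons switch on with activity, were lower in the CMS pool in 10 of 10, and 6 of them were below 0.5 times the C pool. Their median log2 ratio was -1.12, and their summed signal was 60338 (C pool) and 27789 (CMS pool). Nr4a1, an orphan nuclear receptor, had -1.25, and Egr1, a zinc finger factor, had -0.53. The 6 genes of the glucocorticoid response had a median of -0.29 and ran from -0.67 to 0.08, with 5 below 0 and 1 above. The brightest were Per1, a clock gene, at -0.67 and Tsc22d3, the GILZ protein, at -0.28. Whether RNA of other cells or the activity state had a part in the chaperone values was not tested.

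Markers of the resident cells of cortex lay nearer to 0. The median log2 ratio was -0.04 for neurons, -0.09 for astrocytes, -0.15 for oligodendrocytes, 0.05 for microglia and 0.02 for brain endothelium. Mbp, a myelin protein, had a log2 ratio of 0.11. No gene of these 5 lists was past 2-fold, and Gapdh had a log2 ratio of 0.04.

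**Figure D4:**
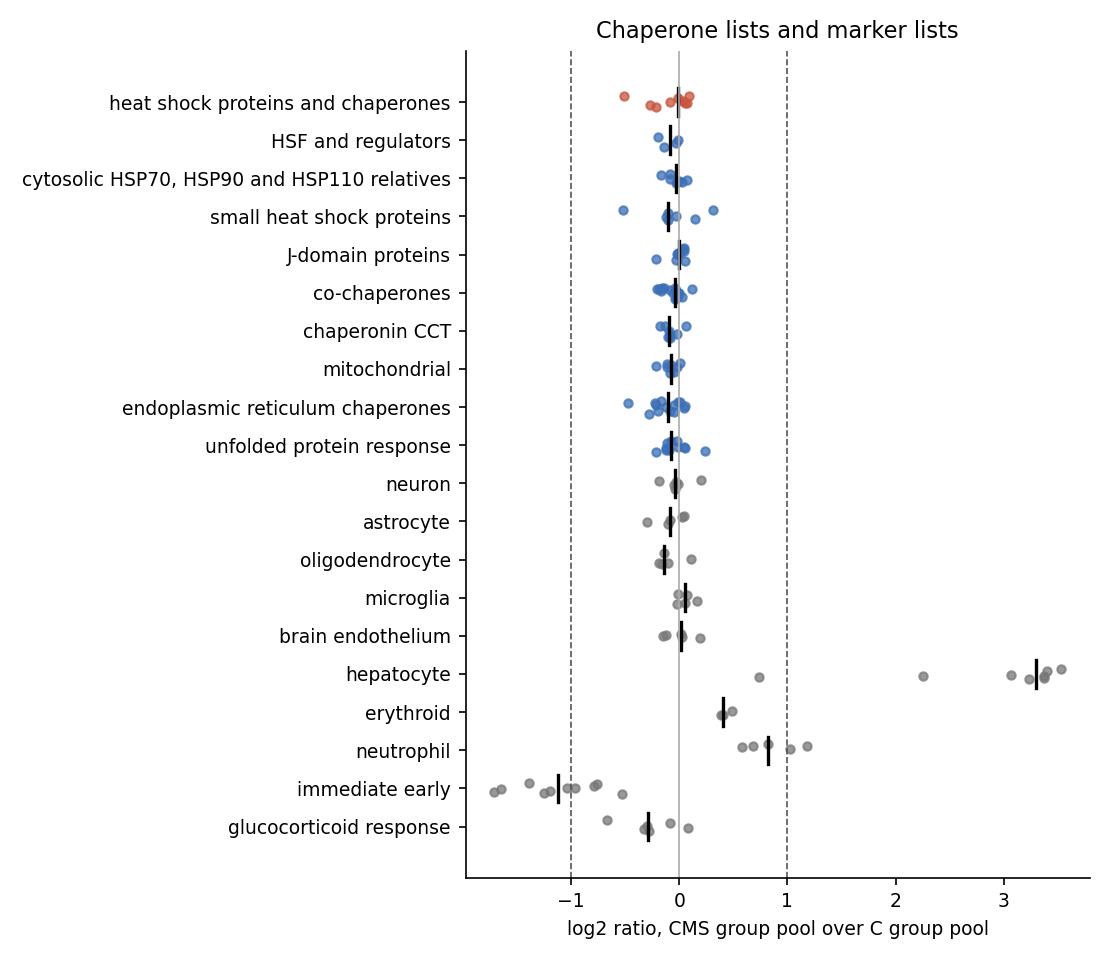
log2 ratio of CMS over control for each measured heat shock and chaperone gene (red), of the 9 chaperone lists (blue) and of the marker and response lists (grey), with the list median as a black bar and dashed lines at 2-fold. All chaperone lists lie within 2-fold, while hepatocyte markers have a median of 3.30 and immediate early genes of -1.12.

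The order of the lowest ratios changed little with the processing. Hspb1 had the lowest ratio of the 9 genes under all 14 ways of processing tried, from -0.69 to -0.45, and Hspa5 was the second lowest under 13 of them. Hspa1a, Hspb1, Dnajb1 and Hspa5 lay below the median of all gene names under all 14. Hsp90aa1 lay below that median under 1 of the 14, with normexp background correction. Hsph1, Hspa8, Hsp90b1 and Hspe1 were above it under all 14, although leaving out the scaling put all 9 log2 ratios below 0.

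**Figure D5:**
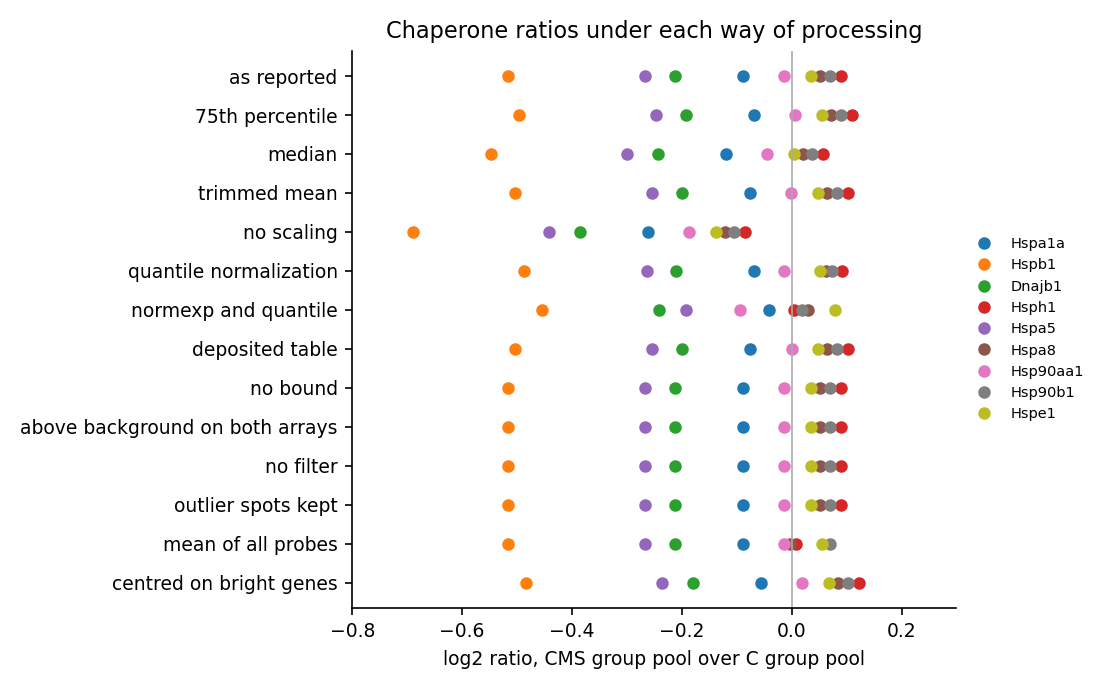
log2 ratio of each member under each way of processing, 1 row per setting and 1 color per gene. Hspb1 is leftmost in every row, and the row without scaling is shifted to the left as a whole, with a member median of -0.19.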

How the data were processed

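Total RNA of the PFC of 1 pool per group (control, CMS) was measured on 2 one-color Agilent arrays. The authors deposited processed intensities of each spot, made by Agilent Feature Extraction 10.10.1.1 with its default settings, which subtract background and remove spatial trends. They also deposited a table that, on comparison, held the same intensities multiplied by 1.80 (control) and 2.05 (CMS), with a mean of 2500 once the outer 2% of spots at either end were left out. The header of the scanner files names build mm9 for the array design.

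Here control and outlier spots (130 and 133) were left out, spots of 1 probe were averaged, and probe signals were scaled so that every array had a mean of 2500. Probes were taken as well above background if a share of 0.5 or more of their spots carried that mark. Dim probes on 1 array were given the higher of their own signal and the lowest signal well above background (17.8 and 17.6). Accessions were named through RefSeq (GRCm38.p6), which named 30725 of 59305 spots. Where a gene had several probes, the one of highest mean log2 signal stood for it. A gene was called where its ratio was above 2 or below 0.5. The code was tested on simulated data. The genes, lists and motifs were chosen with earlier results of these data known. Named genes are the members, the 2 lowest and 2 highest of each chaperone list, some of the 2 brightest of each marker list, and Gapdh. Hspd1 was added with its value known. Python 3.11.15, numpy 2.4.6, pandas 2.3.3, R 4.3.3 and limma 3.58.1 were used. With 1 array per group the number of arrays limits the precision.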

Additional observations from a re-analysis of the deposited data

How the results depend on the processing

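No paired analysis was possible because each group has 1 array, and no replicate could be left out. In turn, the median, the 75th percentile or a trimmed mean replaced the mean in scaling, or scaling was left out. Quantile normalization was run alone and after normexp on the median spot signals. The value table replaced the scanner signals, dim probes had no bound, were dropped or were all kept, outlier spots were retained, and probes of a gene were averaged. One more alternative, chosen after seeing the data, centred on gene names with a mean signal above 1000. Leaving out the scaling moved the median of the members from -0.01 to -0.19, and the median of all gene names from -0.03 to -0.20, by construction. The counts of members past 2-fold (0 and 0) held under all 13 alternatives, and the count below the median of all gene names, 4, was within 1.5 times of that under each of them. Of 117 values of single members compared, 9 moved by more than the spot SD of 0.14, all 9 of them without scaling. Measured from 0, Dnajb1 fell within the scanner error of 0.204 under 4 alternatives, Hspa5 under 1 and Hspb1 under 0. Hspa1a lay beyond its error only without scaling, at -0.26, where the median of all gene names was -0.20. Measured from the median of all gene names, Hspa1a lay from -0.06 to -0.02 under all 14 ways of processing, within its error. All 14 probes of the members were at least 21.5 times the lowest signal well above background.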
